A study of Bos taurus with 8 samples.

Results

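Ribosomal protein genes encode the proteins that, with ribosomal RNA, form the cytosolic ribosome. The genes described here are the protein-coding entries of the count table named RPL, RPS or RPLP followed by a number, together with RPSA. The name alone chose them, without any measured value. They were 98 of 19994 protein-coding genes (0.490%) and 98 of the 24616 genes of all kinds. The 98 entries carried 78 names, of which 16 stood at more than 1 Ensembl gene, 36 entries in all. By name, 58 entries belonged to the large subunit, 4 to its stalk and 36 to the small subunit.

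Liver RNA of 8 Holstein Friesian cows in early lactation, approximately 14 days postpartum, was sequenced as small RNA, 1 library per cow. The 4 cows in severe negative energy balance (SNEB; libraries 7S, 8S, 9S and 10S) were given 25 kg/day of silage and 4 kg/day of concentrate, with milking 3 times daily. The 4 cows in mild negative energy balance (MNEB; libraries 2M, 3M, 4M and 5M) had ad libitum silage and 8 kg/day of concentrate, with milking 1 time daily. Library 2M is an MNEB library by its title and carries a severe treatment label, and it was taken as MNEB. The authors also list 2M as MNEB, with the same 22809423 reads in genes as counted here. Values with 2M placed in SNEB are given as an alternative only. One column of the table is headed 6S, and it stands for 8S here because the label of 8S names that column by its letter. The authors' number of reads in genes for 8S, 28526343, is also the total of that column. Values of single libraries are given in the order in which the libraries are listed here. Diet and milking frequency differed together between the groups and cannot be told apart.

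The small subunit of the ribosome holds the mRNA and reads its codons, and the large subunit joins the amino acids and leads the new chain out through its exit tunnel. A flexible stalk of the large subunit, made of RPLP0, RPLP1 and RPLP2, recruits the elongation factors. In mammals nearly all of these proteins are made from mRNAs that begin with a 5′ terminal oligopyrimidine tract, through which their translation follows nutrient supply and mTOR signalling. Ribosomal protein genes also have many processed pseudogenes, and several hold small nucleolar RNAs (snoRNAs) in their introns. The liver is a major site of protein synthesis, including the secreted proteins of the plasma.

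The libraries were made for miRNAs. A read of a ribosomal protein gene is therefore a short fragment that aligned to that gene, and the values are not levels of intact mRNA. Reads assigned to protein-coding genes numbered 140702, 195589, 145579 and 116725 in the SNEB libraries and 86014, 58887, 213905 and 280802 in the MNEB libraries, 0.519% to 0.686% and 0.191% to 0.928% of all gene counts. Gene counts in all were 21617227 to 28526343 in SNEB and 22809423 to 33963761 in MNEB. Values below are counts per 1000000 protein-coding reads (CPM), in which 1 read is worth between 3.56 CPM in 5M and 17.0 CPM in 3M, and a gene with 0 reads could lie as high as 10.7 CPM in 5M and 50.9 CPM in 3M. A count of 5 reads has a 95% Poisson interval of 1.62 to 11.7 reads and a count of 100 one of 81.4 to 122, and such intervals cover counting error only. The 12 hepatocyte markers summed to 122273 to 216377 CPM in SNEB and 103658 to 231327 CPM in MNEB, and all 5 red cell entries were at 0 in all 8 libraries. The labels name no batch. By the authors' read numbers, uniquely aligned reads were a larger share of the aligned reads in 5M than in any other library. Only such reads were counted, and the part of this in the values of 5M was not tested.

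Ribosomal protein fragments made up close to 1% of the protein-coding reads in both groups. The 98 genes had 1344, 2276, 795 and 976 reads in the SNEB libraries and 1009, 616, 2652 and 1997 reads in the MNEB libraries. They summed to 9552, 11637, 5461 and 8362 CPM in SNEB and to 11731, 10461, 12398 and 7112 CPM in MNEB. The MNEB libraries 2M, 3M and 4M lay near the top of the range together with 8S, the SNEB library 9S was the lowest, and the groups overlapped. The mean was 8753 ± 2578 CPM in SNEB and 10425 ± 2351 CPM in MNEB (SD, n = 4 each), a ratio of 0.840, and the means differed by less than the SD of either group. On the log2 scale this ratio is -0.25, and it came to -0.08 without library 9S and to -0.10 with library 2M placed in SNEB. As shares of the protein-coding reads, these are 0.955%, 1.16%, 0.546% and 0.836% in SNEB and 1.17%, 1.05%, 1.24% and 0.711% in MNEB, with Wilson 95% intervals that reach at most 0.0854 percentage points from the value. With all gene counts as the denominator, miRNAs included, the sum in reads per 1000000 (RPM) was 54.4 ± 21.0 RPM in SNEB and 59.5 ± 40.3 RPM in MNEB. In these bulk samples fewer cells of a type and less RNA per cell cannot be told apart.

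**Figure D1:**
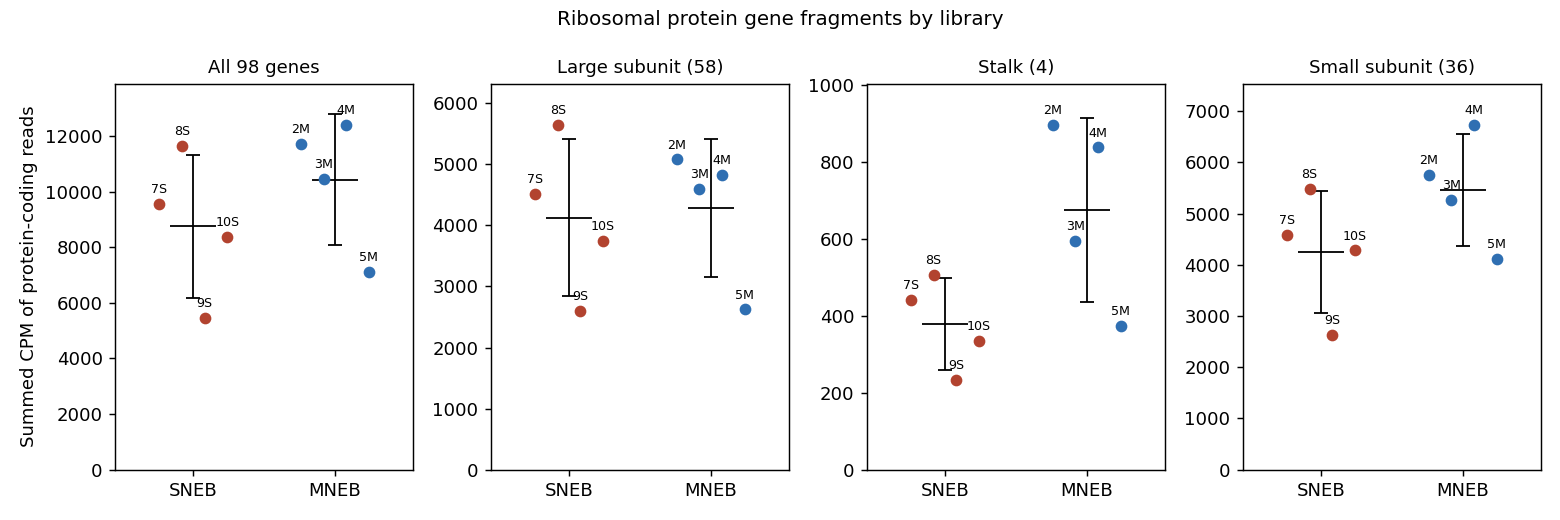
Summed CPM of the ribosomal protein genes in each library (vertical axes, counts per 1000000 protein-coding reads, from 0), for all 98 genes and by subunit, with SNEB left of MNEB; points are libraries and bars are group means with SD (n = 4 each). Library 9S is the lowest SNEB point at 5461 CPM and library 5M the lowest MNEB point at 7112 CPM for all 98 genes, and the groups overlap.

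The difference between the groups was not the same in size for the parts of the ribosome. Stalk genes summed to 441, 506, 234 and 334 CPM in SNEB and to 895, 594, 837 and 374 CPM in MNEB, means of 379 ± 120 and 675 ± 239 CPM with a ratio of 0.561. Of the MNEB libraries, 5M alone lay within the SNEB range. Most of the stalk sum was RPLP0, which averaged 324 ± 103 CPM in SNEB and 523 ± 199 CPM in MNEB. Small subunit genes averaged 4248 ± 1193 CPM in SNEB and 5466 ± 1089 CPM in MNEB, a ratio of 0.777. Large subunit genes without the stalk averaged 4126 ± 1284 CPM in SNEB and 4284 ± 1123 CPM in MNEB. These sums were not tested, and whether the parts differ from each other in their response was not tested either.

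Of the 98 genes, 76 (77.6%) had a read in at least 1 library, against 68.6% of all protein-coding genes, and 45 had a read in every library. The test was run on genes with at least 40 reads over the 8 libraries, which 47 of the 98 reached. The 29 others with reads fell under this minimum. None of the 47 rose or fell in SNEB at an adjusted p under 0.05 (edgeR's quasi-likelihood test with Benjamini-Hochberg adjustment over 4480 protein-coding genes), where 0.134% of all genes tested passed. At an unadjusted p under 0.05, 4 ribosomal protein genes (8.51%) were found, against 11.8% of all genes tested. Of them 1 was higher in SNEB, against 4.75% of all genes, and 3 were lower, against 7.08%. At that threshold DESeq2 gave 4 ribosomal protein genes (9.93% of all genes), limma voom 7 (10.8% of all genes) and edgeR's exact test 3 (11.6% of all genes). After adjustment each gave 0, where 1.47%, 0.0893% and 1.63% of all genes passed. The SNEB and MNEB libraries of 3 genes (6.38%), RPLP2, RPS15 and RPS7, did not overlap, all lower in SNEB, against 2.08% of all genes tested. None of the 47 was higher in every SNEB library than in every MNEB library, against 3.59% of all genes tested.

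Fold changes of single ribosomal protein genes lay mostly below 0. In log2 fold change of SNEB over MNEB, 32 of the 47 (68.1%) were below 0, against 51.0% of all genes tested, and 15 were above. Their median was -0.29, against -0.02 over all genes. A value of -0.5 or less was found for 34.0% of the 47 and for 23.2% of all genes, and a value of 0.5 or more for 12.8% and 19.9%. By part, 16 of 20 small subunit genes, both tested stalk genes and 14 of 25 other large subunit genes were below 0, with medians of -0.41, -1.13 and -0.13. The median of the 47 stayed below 0 under all alternatives run, but came as near as -0.17 without library 9S, -0.15 with library 2M placed in SNEB and -0.14 with library sizes of all genes, where the median of all genes was 0.10.

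**Figure D2:**
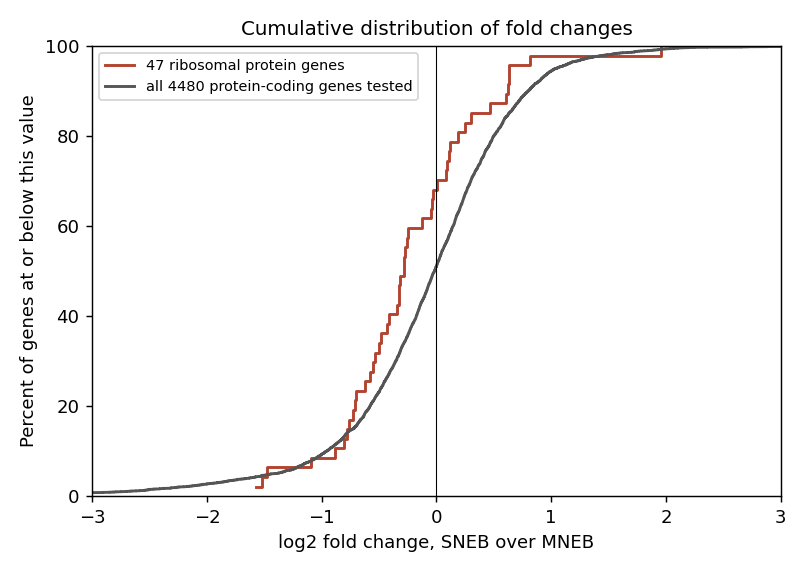
Cumulative percent of genes (vertical axis) at or below each log2 fold change of SNEB over MNEB (horizontal axis), for the 47 ribosomal protein genes and for all 4480 protein-coding genes tested. The line of the ribosomal protein genes lies above that of all genes around 0, with 68.1% against 51.0% of genes below 0, and the lines meet toward both ends.

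**Figure D3:**
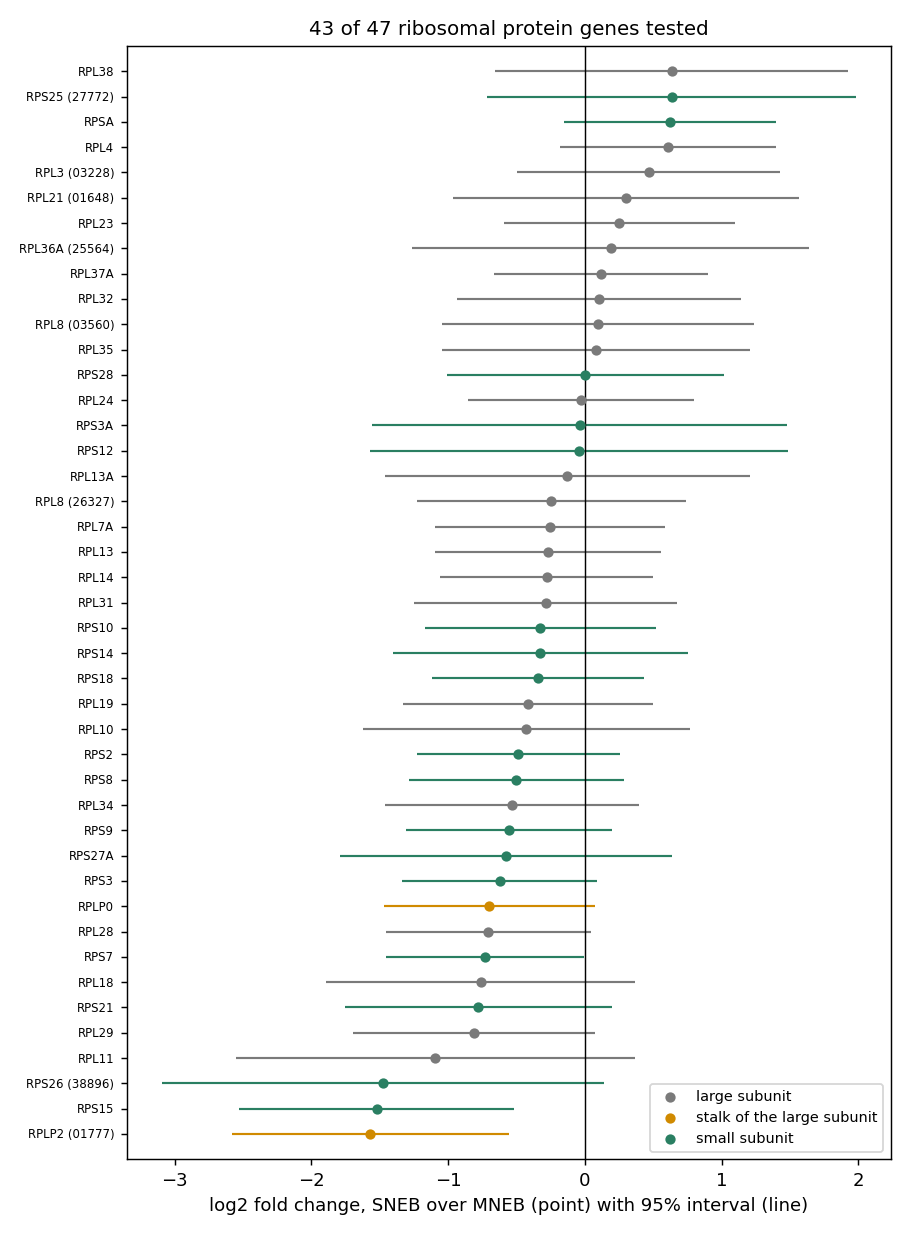
Log2 fold change of SNEB over MNEB (horizontal axis) with its 95% interval for 43 of the 47 ribosomal protein genes tested (edgeR, 4 libraries per group), in order of fold change and coloured by part of the ribosome. Most points lie left of 0, from -1.57 for RPLP2 to 0.64 for RPL38, and no gene has an adjusted p under 0.05.

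RPLP2, an acidic stalk protein (ENSBTAG00000001777), had the smallest p. It was counted with 7, 9, 5 and 2 reads in SNEB and 12, 11, 23 and 15 reads in MNEB, or 49.8, 46.0, 34.3 and 17.1 CPM against 140, 187, 108 and 53.4 CPM. Every SNEB library was below every MNEB library, although 7S, the highest in SNEB, lay close to 5M, the lowest in MNEB. Its log2 fold change was -1.57 (SE 0.48, 95% interval -2.58 to -0.56, adjusted p = 0.177). Without library 5M, RPLP2 fell by 1.79 on the log2 scale in SNEB (adjusted p = 0.0456) and was the only ribosomal protein gene to pass under an alternative, in a fit where 3.77% of all genes passed against 1 of these 47 (2.13%). Over all alternatives its adjusted p ranged from 0.0456 to 0.9996. With library 2M placed in SNEB its value was -0.99 (adjusted p = 0.531). RPLP0, the stalk base that binds both acidic proteins, had 384, 419, 185 and 308 CPM in SNEB and 732, 391, 650 and 321 CPM in MNEB. Only 2M and 4M were above all SNEB libraries, and the log2 fold change was -0.70 (SE 0.37, adjusted p = 0.502), or -0.23 with 2M placed in SNEB. RPLP1, the other acidic stalk protein, had 13 reads in all and a second RPLP2 entry had 19, too few for a test.

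RPS15, a small subunit protein at the head of the subunit near the decoding site, had 35.5, 102, 13.7 and 60.0 CPM in SNEB and 140, 187, 140 and 150 CPM in MNEB. The MNEB libraries lay close together and all above the SNEB libraries, which ranged more widely, with 9S at the bottom. The log2 fold change was -1.52 (SE 0.47, adjusted p = 0.185), and with library 2M placed in SNEB it was the only ribosomal protein gene whose groups did not overlap, lower in SNEB, against 1.74% of all genes. RPS7, which is required in human cells for the maturation of small subunit RNA, was behind only RPL37A in mean CPM. It had 540, 624, 357 and 583 CPM in SNEB and 698, 866, 1197 and 677 CPM in MNEB, means of 526 ± 118 and 859 ± 240 CPM. The highest SNEB library, 8S, lay just under the lowest MNEB library, 5M. Its log2 fold change was -0.73 (SE 0.34, adjusted p = 0.413).

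RPS26, which lies by the exit of the mRNA channel (ENSBTAG00000038896), had 64.0, 20.5, 0 and 17.1 CPM in SNEB and 116, 17.0, 23.4 and 99.7 CPM in MNEB. The higher MNEB values were those of 2M and 5M, while 3M and 4M lay within the SNEB range (log2 fold change -1.48, adjusted p = 0.496, and -0.60 with 2M placed in SNEB). RPL28 of the large subunit had 135, 148, 131 and 231 CPM in SNEB and 314, 204, 327 and 192 CPM in MNEB. Only 10S among the SNEB libraries reached the MNEB range, and the log2 fold change was -0.71 (adjusted p = 0.471).

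RPSA, a small subunit protein also known as the laminin receptor, was behind only RPL37A and RPS7 in mean CPM and had a log2 fold change above 0, as did 4 of the 20 small subunit genes tested. It had 597, 787, 742 and 505 CPM in SNEB and 384, 272, 514 and 484 CPM in MNEB, means of 658 ± 130 and 413 ± 110 CPM. The SNEB libraries lay above the MNEB libraries except that 4M passed 10S, and library 9S, low for most ribosomal protein genes, was the second highest. The log2 fold change was 0.62 (SE 0.37, adjusted p = 0.581). RPL4, whose extended loop lines the exit tunnel, had 519, 844, 289 and 497 CPM in SNEB and 407, 289, 295 and 367 CPM in MNEB. Libraries 7S, 8S and 10S were above all MNEB libraries and 9S was level with 3M, and the log2 fold change was 0.61 (adjusted p = 0.589), or 0.30 without library 8S. RPL38, needed in mouse embryos for the translation of a subset of Hox mRNAs, had few reads and a log2 fold change of 0.64 (adjusted p = 0.759), or 0.23 without library 4M.

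**Figure D4:**
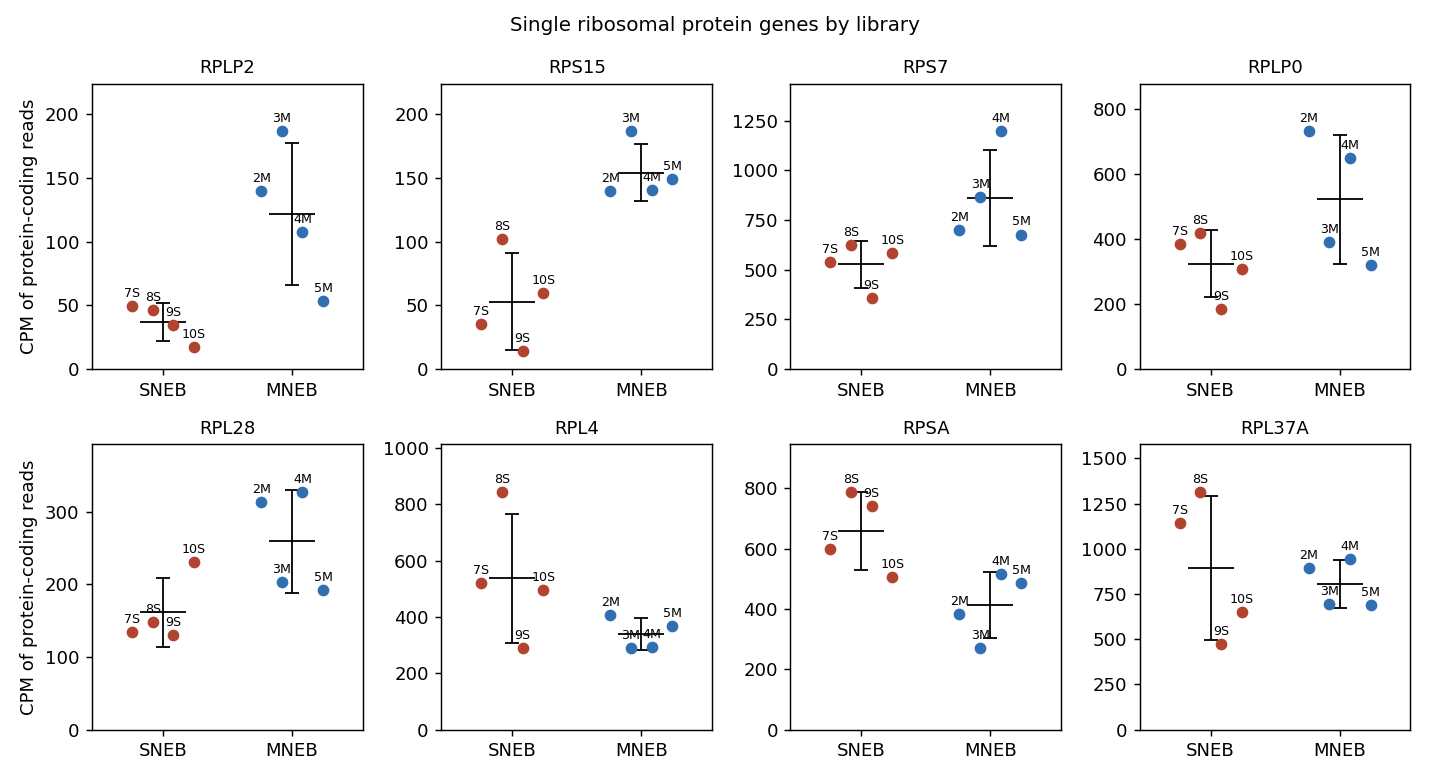
CPM of single ribosomal protein genes in each library (vertical axes from 0), SNEB left of MNEB, with library names at the points and bars for group means with SD (n = 4 each). RPLP2, RPS15 and RPS7 lie lower in all 4 SNEB libraries than in all 4 MNEB libraries, while the other genes overlap.

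The 10 ribosomal protein genes with the highest mean CPM held 52.2% ± 1.15 of the ribosomal protein reads in SNEB and 50.7% ± 6.35 in MNEB. Read shares are not corrected for transcript length, so the order of genes is one of reads and not of molecules. RPL37A, a small zinc-binding protein of the large subunit, led with 1144, 1314, 474 and 651 CPM in SNEB and 895, 696, 944 and 687 CPM in MNEB. The SNEB libraries reached both above and below the MNEB libraries, and the log2 fold change of 0.12 (SE 0.37, adjusted p = 0.946) turned to -0.13 without library 8S. RPS3, RPS18 and RPS2, also among the 10, are small subunit proteins, of which RPS2 and RPS3 line the mRNA entry channel. Their log2 fold changes were -0.62, -0.34 and -0.49, with adjusted p between 0.531 and 0.783. RPS3 had 313, 440, 213 and 377 CPM in SNEB and 512, 560, 598 and 381 CPM in MNEB. Of the MNEB libraries 5M alone lay within the SNEB range of RPS3, and the lowest value was that of 9S.

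Library 9S among the SNEB libraries and library 5M among the MNEB libraries were low across the ribosomal protein genes. Of the 47 genes tested, 40 were below their own mean over the 8 libraries in 9S, against 21, 11 and 26 in 7S, 8S and 10S. In MNEB 37 were below their mean in 5M, against 6, 14 and 13 in 2M, 3M and 4M. Over all genes tested, 57.3% lay under their own mean in 9S and 63.9% in 5M. This share was 38.9%, 45.9% and 44.3% in 7S, 8S and 10S, and 42.6%, 49.5% and 43.4% in 2M, 3M and 4M. Low values in 9S and 5M were thus not limited to ribosomal protein genes. The 20 protein-coding genes with the highest counts took 30.7% of the protein-coding reads in 9S and 33.8% in 5M. In the other libraries they took 17.6% to 23.3%. The TMM factors were 0.889 in 9S and 0.832 in 5M, and 1.02 to 1.09 in the other libraries. CPM here carry no TMM scaling, and the part of the denominator in these low values was not tested. Among the 47, the lowest value of a gene lay in 9S for 21 genes and in 5M for 15. The median deviation on the scale log2(CPM + 20) was 0.05, 0.20, -0.67 and -0.05 in SNEB and 0.38, 0.26, 0.37 and -0.30 in MNEB, while over all genes tested it was 0.13, 0.04, -0.11 and 0.06 in SNEB and 0.09, 0.01, 0.11 and -0.20 in MNEB. Single genes nearly vanished in 9S or in 5M. RPS27A, made as a fusion with ubiquitin, had 1 read in 9S. RPL13A, which in human monocytes also silences inflammatory mRNAs when released from the ribosome, had 3 reads in 5M. RPL11, which binds MDM2 when free of the ribosome, had 3 reads in 5M and 1 in 10S, against 15 in 9S and 66 in 4M.

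**Figure D5:**
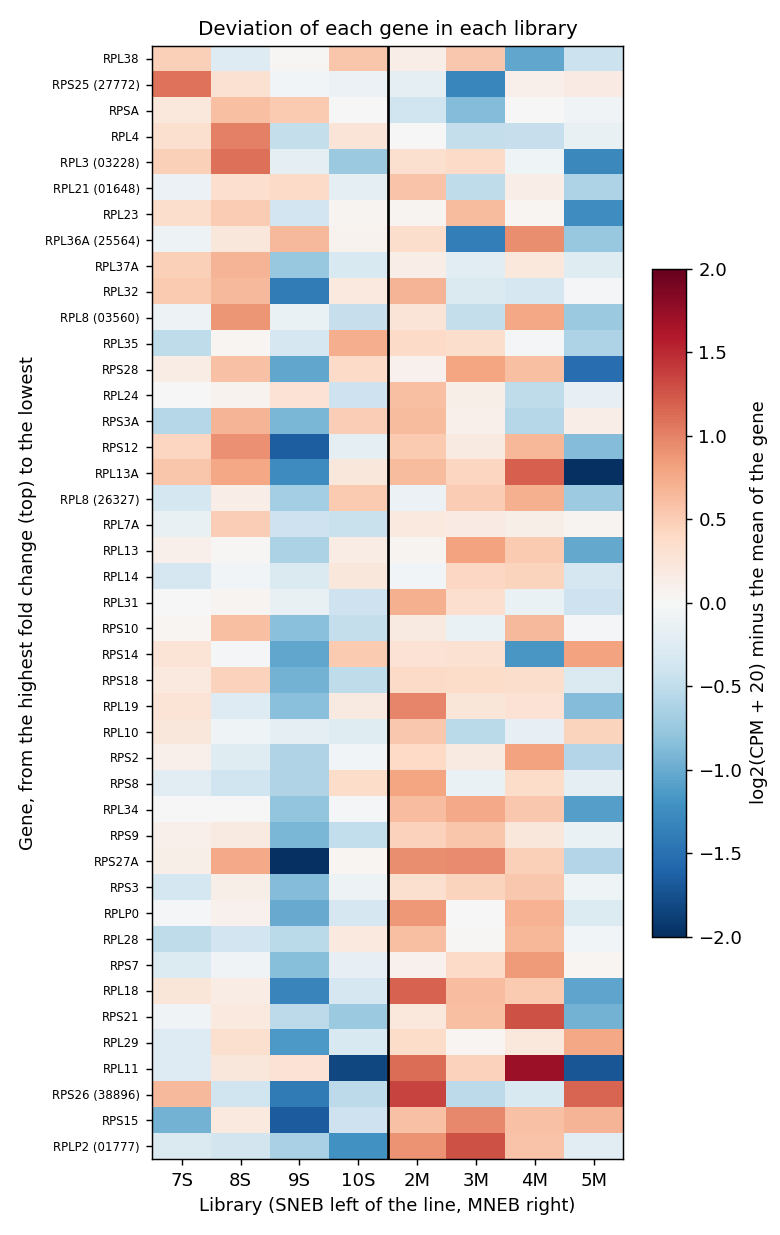
Heat map of 43 of the 47 ribosomal protein genes tested (one line each, from the highest fold change at the top to the lowest) in each library (columns, SNEB left of MNEB), where colour gives the deviation from the gene's own mean on the scale log2(CPM + 20), red above and blue below it. The columns of 9S and 5M are mostly blue, with medians over the 47 genes of -0.67 and -0.30. Over all genes tested the medians of 9S and 5M were -0.11 and -0.20.

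Cell type markers did not all follow libraries 9S and 5M. The hepatocyte markers (12 genes, all with reads) summed to 122273, 155157, 216377 and 140518 CPM in SNEB and to 149650, 140099, 103658 and 231327 CPM in MNEB, and were highest in 9S and 5M, the libraries with the lowest ribosomal protein sums. The high sum of 9S lay in the fibrinogen genes, with 42486 CPM of FGA, 86022 CPM of FGB and 38282 CPM of FGG, each the highest of the 8 libraries, while albumin (ALB) was lowest there, at 5537 CPM. With the 12 markers left out of the denominator, the ribosomal protein sum was 10339 ± 2818 CPM in SNEB and 12261 ± 2151 CPM in MNEB, a difference of -0.25 on the log2 scale. The markers averaged 158581 CPM in SNEB and 156183 CPM in MNEB, so leaving them out could change this ratio only little. By library, the sums were then 10883, 13774, 6969 and 9729 CPM in SNEB and 13795, 12165, 13832 and 9252 CPM in MNEB. Libraries 9S and 5M remained the lowest of their groups. Without 9S and 5M together, a choice made after seeing the data, the difference of the sum was -0.23 and the median of the tested genes -0.26, with 0 of the 47 ribosomal protein genes passing, against 3.01% of all genes. The Kupffer cell and macrophage markers summed to 576, 358, 900 and 471 CPM in SNEB and 1046, 3736, 16175 and 1282 CPM in MNEB. All 9 of these markers had reads, and the 8 tested were below 0 with none passing (smallest adjusted p = 0.0772). Leukocyte markers summed to 98.8 ± 58.8 CPM in SNEB and 594 ± 427 CPM in MNEB, where 5M, at 57.0 CPM, lay within the SNEB range of 49.8 to 184 CPM. Most of the leukocyte sum was PTPRC, at 73.5 ± 47.1 CPM in SNEB and 450 ± 356 CPM in MNEB. Only PTPRC of these markers had enough reads for the test (log2 fold change -2.50, adjusted p = 0.121). S100A8 went the other way, with 4 reads in 9S and 1 in 4M. Endothelial markers summed to 324 ± 207 CPM in SNEB and 642 ± 436 CPM in MNEB. Of them CDH5, the cadherin of endothelial junctions, fell in SNEB (log2 fold change -4.59, adjusted p = 0.0445). It had 21.3, 0, 6.87 and 8.57 CPM in SNEB and 93.0, 102, 626 and 57.0 CPM in MNEB. These were 3, 0, 1 and 1 reads against 8, 6, 134 and 16 reads, most of them in 4M. Without library 7S, 0 genes passed as lower in SNEB, so CDH5 did not pass there. STAB2 and KDR were at -0.81 and -0.59, PECAM1 and VWF at 0.50 and 0.12, and none of these passed. Fibroblast and stellate cell markers summed to 412 ± 54.0 CPM in SNEB and 358 ± 175 CPM in MNEB. The part of cell composition in the ribosomal protein values was not tested.

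Other genes of translation did not share one direction. Of 4 elongation factors tested, 3 were below 0 (median -0.16), among them EEF2, which moves the ribosome along the mRNA, with 1369 ± 361 CPM in SNEB and 1588 ± 355 CPM in MNEB (log2 fold change -0.27, adjusted p = 0.848). Of the ribosomal proteins under other names, GNB2L1, the RACK1 protein of the small subunit, was at -0.25 (adjusted p = 0.870). Initiation factors and poly(A) binding proteins stood at 14 above and 13 below 0 of 27 tested (median 0.03). Mitochondrial ribosomal proteins, which serve the separate ribosome of that organelle, stood at 11 above and 8 below 0 of 19 tested (median 0.10). Ribosome biogenesis factors stood at 10 above and 6 below of 16 tested (median 0.46), and the kinases and regulators of translational control at 4 above and 5 below of 9 tested (median -0.07). The biogenesis factors summed to 1513 ± 284 CPM in SNEB and 1249 ± 166 CPM in MNEB, and the mitochondrial ribosomal proteins to 2246 ± 212 CPM and 1855 ± 107 CPM. No gene of these lists passed the test.

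Several ribosomal protein genes are hosts of intronic snoRNAs, which are themselves abundant in small RNA libraries. In RefSeq genes of the ARS-UCD2.0 assembly, 77 of the 78 names were matched, and 27 names held 57 snoRNA genes between their ends. Of the tested genes, the 18 with a snoRNA inside had a median log2 fold change of -0.09, with 11 below 0, and the 29 without had a median of -0.33, with 21 below 0. SNORD43, of the RPL3 gene, was counted separately from its host and had 3789, 7485, 8618 and 8662 reads in SNEB and 9746, 3440, 2345 and 821 reads in MNEB. The lowest SNORD43 count was in 5M, and 2M had the highest. These are raw reads, not scaled to the size of the library, and are not in the unit of the RPL3 values that follow. SNORD16, of the RPL4 gene, was also highest in 2M and lowest in 5M, with 1390 and 222 reads. SNORD24, of the RPL7A gene, was instead highest in 4M, with 2423 and 724 reads at its most counted entries. RPL3, a protein close to the peptidyl transferase centre, had 327, 511, 199 and 129 CPM in SNEB and 291, 306, 215 and 81.9 CPM in MNEB (log2 fold change 0.47, adjusted p = 0.766, and 0.0421 without library 8S).

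The authors counted only reads that aligned to 1 place, so a gene with near-identical copies loses the reads it shares with them, and its value is uncertain. Of the 98 genes, 22 had no read in 1238203 protein-coding reads, which allows up to 2.42 CPM over the 8 libraries. Among the names, 7 had no read at any entry: RPS4X, RPS13, RPS15A, RPS29, RPL26, RPL39 and RPL10L. RPL7 had 1 read, while RPL7A had enough for a test (log2 fold change -0.25, adjusted p = 0.870). The 2 RPL8 entries, with 99 and 79 reads, gave log2 fold changes of -0.25 and 0.10. RPL36A (ENSBTAG00000025564) gave 0.19 (adjusted p = 0.951) and RPL10, which lies near the site of peptide transfer, gave -0.43 (adjusted p = 0.839), or -0.0478 without library 5M. RPL3L, the form of RPL3 made in striated muscle, had 5 reads, 1 in each SNEB library and 1 in 5M. RPS27 had 13 reads and its paralog RPS27L 4.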

How the data were processed

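The deposited table holds raw counts of reads per Ensembl gene (release 68, UMD3.1). The authors trimmed adaptors with Cutadapt 1.1, dropped reads under 18 nt, filtered on base quality, checked with FastQC 0.10.0, aligned with Novoalign 2.07.11, and counted uniquely aligned reads with HTSeq 0.5.3p3. The strand setting of HTSeq was not given in the sources used here. Entries that name no gene were left out.

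CPM used the protein-coding total of each library. SNEB (n = 4) was compared with MNEB (n = 4) with edgeR 4.0.16 in R 4.3.3, by its quasi-likelihood test with TMM scaling, on 4480 protein-coding genes with at least 40 reads over 8 libraries, with Benjamini-Hochberg adjustment. Wilson and Poisson intervals are at 95%. The smallest chi-square per degree of freedom of the 12 library pairs within groups was 2.46, so no library was a copy of another in its group. Pairs across the groups were not compared in this way. Alternatives were DESeq2 1.42.0, voom of limma 3.58.1, the exact test of edgeR, other scalings, filters and library sizes, placing 2M in SNEB, and leaving out single libraries. Python 3.11.15 was used.

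Genes and lists were chosen with earlier results of these data known. Those named were the 10 of highest mean CPM, the 5 smallest p in each direction, genes whose groups did not overlap, stalk genes and RPSA, paralogs, genes in which a library stood apart, and the most counted genes of the elongation factor and other-name lists, without some genes that are not reported here. Single genes named to show low counts in 9S and 5M, and the snoRNAs, were chosen after their values were seen.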

Additional observations from a re-analysis of the deposited data

Results flagged for a closer look

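In 4 sets of values a library lay far from the other 3 of its group, by the size of its gap to the nearest of them relative to the range of the group (Dixon's critical value at 95%). RPS18, a protein of the head of the small subunit, had 292 CPM in library 5M, below the 467 to 477 CPM of the other MNEB libraries, while the SNEB libraries held 419, 506, 179 and 248 CPM. RPL34, a large subunit protein, had 61.8 CPM in library 9S, below the 120 to 123 CPM of the other SNEB libraries, and the MNEB libraries held 198, 221, 187 and 46.3 CPM (log2 fold change -0.53, adjusted p = 0.698). The ribosomal protein genes without the 10 of highest mean CPM summed to 2974 CPM in library 5M, below the other MNEB libraries. The endothelial markers summed to 1290 CPM in library 4M, above the other MNEB libraries. Chance marks about 1 in 20 groups, and 94 groups of single genes and 60 groups of sums were examined.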

How the results depend on the processing

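No ribosomal protein gene passed an adjusted p of 0.05 under any alternative, except 1, RPLP2, lower in SNEB without library 5M, so that leaving out single libraries gave 0 to 1. The number of protein-coding genes passing was 6, against 3 without scaling, 62 with library sizes of all genes, 3 at a minimum of 80 reads, 40 with a read required in every library, 147 without a filter, 73 by edgeR's exact test, 66 by DESeq2, 15 with library 2M in SNEB, 1 to 169 with single libraries left out (169 without 5M) and 135 without 5M and 9S. The median of the tested ribosomal protein genes ranged from -0.42 (without 8S) to -0.17 (without 9S) with single libraries left out, and the log2 ratio of the summed CPM from -0.42 (without 8S) to -0.08 (without 9S), with -0.13 over all gene counts and -0.10 with 2M in SNEB. Of 414 values of single genes under alternatives, 7 changed sign. RPL37A ranged from -0.13 to 0.29 and RPL36A from -0.20 to 1.11 with single libraries left out, and without 5M and 9S the values were -0.52 for RPL36A, 0.0185 for EEF2 and 0.14 for GNB2L1. The causes were not tested. No paired analysis was possible because the groups share no replicate numbers. At these depths most of the ribosomal protein genes have under 100 reads per library, and 51 of the 98 could not be tested.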
